A study of Homo sapiens with 9 samples.

Results

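Small nucleolar RNA (snoRNA) host genes were examined in HCT116 cells, an established human colorectal carcinoma line. Members were chosen by symbol: every gene named SNHG followed by digits alone, together with GAS5, ZFAS1, EPB41L4A-AS1, DANCR and TAF1D. These were 33 of the 58395 genes in the deposited tables. TAF1D was annotated as protein coding and the other 32 as long noncoding RNAs. The lines had been made by lentiviral infection and drug selection, and every line, the control included, carried a short hairpin RNA against STBD1, a glycogen-binding protein linked to glycogen autophagy. The groups were plvx neo, the vector without an insert, STBD1 WT, which re-expressed the wild-type protein, and STBD1 W203C, which re-expressed a point mutant, with 3 biological replicate libraries each. In the names of the deposited tables WT and W203C are exchanged relative to the sample labels. Groups are named here by the labels, and with the names exchanged every direction between WT and W203C would turn and their comparisons with plvx neo would change places.

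The 9 libraries held 16.9 to 23.3 M expected read pairs (M, mega; RSEM expected counts, in which pairs that match several transcripts are divided between them). STBD1, the gene under study, was at 2.75 to 3.84 TPM (a level corrected for transcript length, with equal totals across libraries) in plvx neo at 10.8 to 10.9 TPM in STBD1 WT and at 8.37 to 10.3 TPM in STBD1 W203C. The read-through gene FAM47E-STBD1, which shares sequence with STBD1, was at 0.96 to 2.41 TPM in plvx neo at 41.5 to 46.1 TPM in STBD1 WT and at 34.7 to 38.4 TPM in STBD1 W203C. The ranges of the groups did not overlap for either gene, and a level does not show which form of the protein was encoded. All 5 epithelial markers were present, from 17.7 TPM for CDH1 to 1958 TPM for KRT8, while PTPRC, CD3E, PECAM1, VWF, COL1A2 and DCN were at or below 0.21 TPM and COL1A1 was at 12.6 to 21.6 TPM. RN7SL1 and RN7SL2, which encode the RNA of the signal recognition particle, took 8.23% to 12.8% of the TPM of a library and lowered every other TPM value by that share.

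snoRNAs are short nuclear RNAs that guide chemical modification of ribosomal RNA. Box C/D snoRNAs guide methylation of the ribose, box H/ACA snoRNAs guide the conversion of uridine to pseudouridine, and scaRNAs, their relatives in Cajal bodies, act on spliceosomal RNAs. In human cells most of them are cut from introns of a host gene after splicing. The spliced host transcript is a separate product. Several noncoding hosts, GAS5 among them, begin like ribosomal protein mRNAs with a cytosine and a run of pyrimidines (a terminal oligopyrimidine, or TOP, start), carry only short reading frames and are broken down by nonsense-mediated decay when they are translated, so that the level of the spliced RNA is known to depend on both transcription and translation.

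By RefSeq annotation (GRCh38.p14), 31 of the 33 spans held at least 1 snoRNA or scaRNA gene. GAS5 held 11, SNHG1 and TAF1D 8 each, and SNHG14, the long host of the imprinted SNORD115 and SNORD116 clusters, held 83. SNHG12 and SNHG17 held 4 each, SNHG16, SNHG29 and ZFAS1 held 3 each, and single genes were found in 15 members, among them SNORA26 in DANCR, SNORA13 in EPB41L4A-AS1, SNORD87 in SNHG6 and SCARNA13 in SNHG10. SNHG27 and SNHG28 held none by this annotation.

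The start of transcription is printed for 10 hosts. They are the 6 noncoding members with a start in the RefSeq promoter table that were called changed in a comparison, and 4 others. These 4 are SNHG12, SNHG19, ZFAS1 and GAS5, and all but GAS5 have the pyrimidine run. The 10 lines therefore do not show the share of members with the run, which was 8 of 29 and is given below. Each line gives 40 bases before and 20 bases from the RefSeq start, 5′ to 3′ on the transcribed strand (GRCh38.p14). Capitals before the start mark the letters TATAA, and capitals from position 41 of the line mark a run of at least 5 pyrimidines that begins with C at the start.
SNHG5, chr6:85678714-85678773, minus strand: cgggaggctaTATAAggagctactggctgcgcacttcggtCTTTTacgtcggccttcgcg
SNHG12, chr1:28581854-28581913, minus strand: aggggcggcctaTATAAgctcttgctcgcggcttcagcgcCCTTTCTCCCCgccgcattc
SNHG19, chr16:2155339-2155398, minus strand: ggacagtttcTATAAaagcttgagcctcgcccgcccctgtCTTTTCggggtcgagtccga
ZFAS1, chr20:49278602-49278661, plus strand: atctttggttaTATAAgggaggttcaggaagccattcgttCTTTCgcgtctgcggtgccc
SNHG8, chr4:118278722-118278781, plus strand: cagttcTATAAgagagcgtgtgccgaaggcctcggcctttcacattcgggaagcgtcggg
SNHG1, chr11:62855866-62855925, minus strand: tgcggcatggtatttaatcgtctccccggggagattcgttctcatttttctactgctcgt
SNHG10, chr14:95534853-95534912, minus strand: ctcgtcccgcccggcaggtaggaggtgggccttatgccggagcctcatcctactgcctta
SNHG17, chr20:38435309-38435368, minus strand: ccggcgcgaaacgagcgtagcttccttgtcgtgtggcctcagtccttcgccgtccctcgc
DANCR, chr4:52712354-52712413, plus strand: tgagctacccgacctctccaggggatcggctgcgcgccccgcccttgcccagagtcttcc
GAS5, chr1:173869026-173869085, minus strand: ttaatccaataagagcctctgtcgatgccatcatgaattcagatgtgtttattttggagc

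Of the 29 members with an entry in the promoter table, 8 (27.6%) had the pyrimidine start, namely SNHG4, SNHG5, SNHG12, SNHG18, SNHG19, SNHG32, TAF1D and ZFAS1. Among all 35116 promoters of the same length the share was 4.07%, and among the 79 genes with a ribosomal protein symbol it was 54.4%. TATAA lay between 40 and 16 bases before the start in 6 members (20.7%, against 3.91% of all promoters), which were SNHG5, SNHG7, SNHG8, SNHG12, SNHG19 and ZFAS1. The E-box letters CACGTG, the same on both strands, were found in the 300 bases of 2 members, SNHG7 and SNHG30 (6.90%, against 7.26%). For GAS5, described as a TOP gene, the RefSeq start lies 163 bases before the 5′ end of the gene in GENCODE, and the letters shown for it hold no such run. These counts describe letters at the annotated start, which can differ from the start used in a cell, and say nothing of the factors that bind there.

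The members spanned a wide range of levels. SNHG6, host of SNORD87, was the highest at 651 ± 47.4 TPM (SD over the 9 libraries), followed by SNHG29 at 485 ± 25.4, GAS5 at 432 ± 10.6, SNHG1 at 302 ± 15.7 and SNHG19 at 297 ± 24.1 TPM. The values of SNHG6 lay above those of SNHG29 in all libraries, and those of GAS5 above those of SNHG1, whereas the ranges of SNHG29 and GAS5, and those of SNHG1, SNHG19, ZFAS1, SNHG8 and SNHG5 in turn, overlapped with the next in order. TAF1D, SNHG32, SNHG9, SNHG16, DANCR, SNHG12 and SNHG25 had means between 102 and 159 TPM. SNHG3, SNHG7, SNHG15, SNHG4, SNHG17 and EPB41L4A-AS1 lay between 35.9 and 75.6 TPM, and SNHG10, SNHG26, SNHG20, SNHG11, SNHG21 and SNHG30 between 6.22 and 14.2 TPM. SNHG22 was at 1.43 to 4.45 TPM. SNHG14, SNHG28 and SNHG31 stayed below 1 TPM in all libraries, and SNHG18 and SNHG27 had no read assigned in any library, which allows up to 3 read pairs per library by counting error alone.

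**Figure D1:**
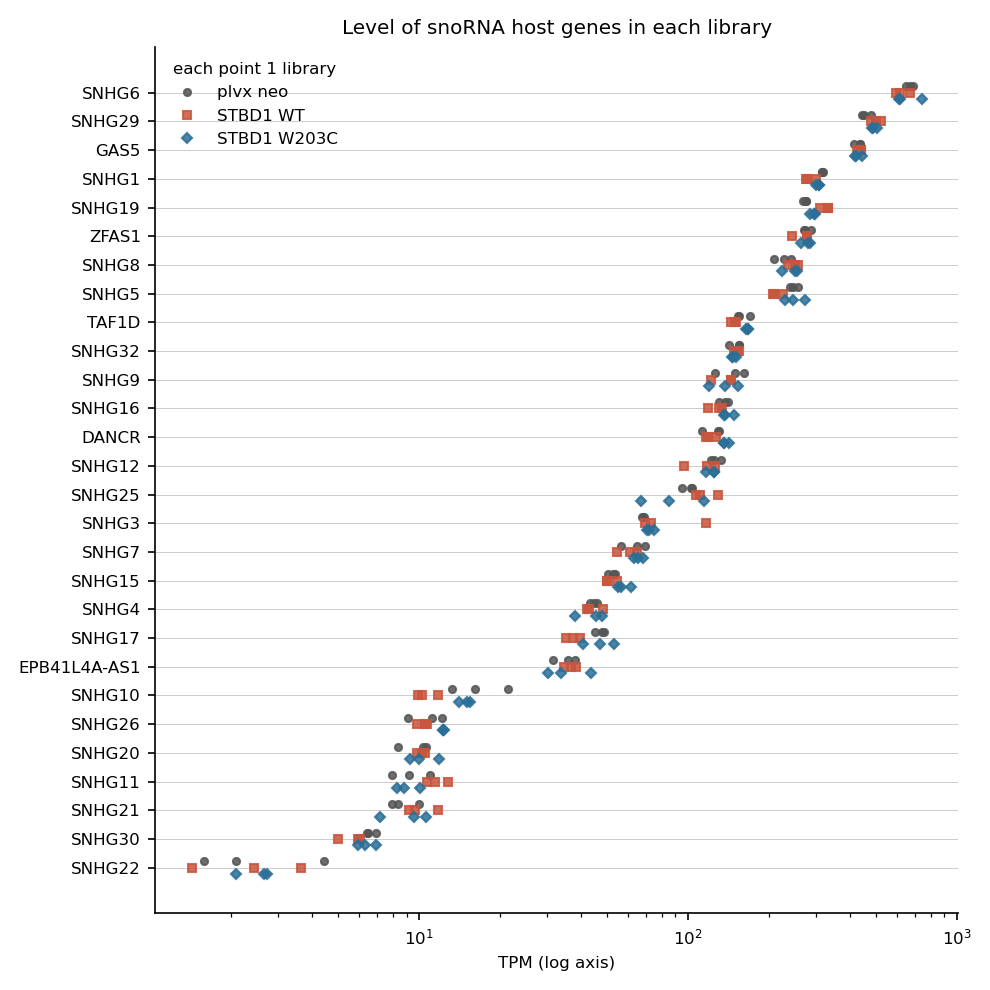
TPM (log axis) of the 28 snoRNA host genes with a mean above 1 TPM, ordered by mean over the 9 libraries, with 1 point per library coloured by group. The members run from 651 TPM for SNHG6 to 2.56 TPM for SNHG22, and on the log axis the groups lie close together for most of them. Not all ranges overlap. On this scale SNHG19 separates all 3 groups, with 269 to 276 TPM in plvx neo, 285 to 297 in STBD1 W203C and 310 to 333 in STBD1 WT. In counts scaled to library size, without the correction for length, the 3 groups overlap for SNHG19. For SNHG10 and SNHG17 every STBD1 WT library lies below every plvx neo library. SNHG3 stands out in 1 STBD1 WT library at 116 TPM.

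As a family the hosts took about 0.2% of every library. Their summed expected counts made up 0.220% ± 0.00256 (SD, n = 3) of all counts in plvx neo. For STBD1 WT the share was 0.216% ± 0.00286 and for STBD1 W203C 0.217% ± 0.00199, with a range over the 9 libraries of 0.213% to 0.223%. The ranges of the 3 groups overlapped. Replicates were tight: among the 25 members with a mean of at least 5 CPM (counts scaled to library size by TMM, the trimmed mean of M values), the median coefficient of variation was 4.03% over the plvx neo libraries, 4.29% over those of STBD1 WT and 4.0% over those of STBD1 W203C.

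Comparing STBD1 WT and plvx neo asked what re-expression of the wild-type protein changed. Of the 27 members that passed the filter on low counts, 5 were lower in STBD1 WT, SNHG10, SNHG5, SNHG17, SNHG1 and SNHG6, and 1 was higher, SNHG8 (edgeR quasi-likelihood test, two-sided, Benjamini-Hochberg adjusted p below 0.05 over all genes tested). That is 22.2% of the members tested, beside 27.8% of the 15289 genes tested, of which 13.9% were higher and 13.9% lower. With upper quartile factors 2 members were higher and 5 lower, and with a GC and length offset 3 were higher, SNHG3, SNHG8 and SNHG29, and 5 lower, with SNHG7 in place of SNHG6. The median log2 fold change of the members was −0.05, beside 0.01 over all genes, and 18 of the 27 estimates lay below 0. With the GC and length offset the members' median was −0.0107. SNHG14, SNHG18, SNHG22, SNHG27, SNHG28 and SNHG31 did not pass the filter here. Estimates within 1.2-fold in either direction were found for 26 of the 27 members (96.3%) and for 73.5% of all genes tested. With both restricted to a mean of at least 5 CPM, the shares were 24 of 25 members (96.0%) and 82.6% of 11318 genes.

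The largest fall was that of SNHG10 (ENSG00000247092, chromosome 14, 95521943 to 95534889, minus strand), the host of SCARNA13. It was at 21.4, 13.3 and 16.2 TPM in the plvx neo libraries, at 10.3, 11.8 and 9.91 TPM in STBD1 WT and at 14.1, 15.2 and 15.5 TPM in STBD1 W203C. The 21.4 TPM of plvx neo replicate 1 went with a shorter RSEM length, 807 bases beside 1009 to 1108 in the other libraries. The STBD1 WT libraries were the 3 lowest of the 9, with no overlap with either of the other groups. The log2 fold change of STBD1 WT against plvx neo was −0.42 ± 0.11 (SE; edgeR quasi-likelihood adjusted p = 0.00857), and it lay between −0.66 and −0.36 in the 17 other fits described under the processing. SNHG10 overlaps exons of GLRX5, a mitochondrial glutaredoxin gene on the opposite strand with 1711 expected counts on average, which was lower too, by −0.14 ± 0.05 (edgeR quasi-likelihood adjusted p = 0.0376). Strand use in counting is not given in the sources used here, so reads of GLRX5 and SNHG10 cannot be told apart where they overlap. SCARNA13 itself was counted at 17 to 52 read pairs per library, with 27, 25 and 29 in plvx neo and 26, 52 and 21 in STBD1 WT. Its log2 fold change was 0.29 ± 0.30 (edgeR quasi-likelihood adjusted p = 0.511), too uncertain to show whether it followed its host.

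SNHG5 (ENSG00000203875, chromosome 6, 85650491 to 85678932, minus strand), the host of SNORD50A and SNORD50B and 1 of the TOP starts shown above, was at 247, 239 and 258 TPM in plvx neo, at 209.6, 226 and 208 TPM in STBD1 WT and at 230.4, 246 and 272 TPM in STBD1 W203C. The STBD1 WT libraries were again the 3 lowest of the 9. The log2 fold change against plvx neo was −0.25 ± 0.05 (edgeR quasi-likelihood adjusted p = 0.000741), the smallest p among the members, and the call held without any 1 library. The overlapping same-strand gene ENSG00000271793 had 21.2 expected counts on average, far fewer than SNHG5 at 1246.

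SNHG17 (ENSG00000196756, chromosome 20, 38419638 to 38435409, minus strand), host of the SNORA71 family, was at 45.1, 48.9 and 48.1 TPM in plvx neo, at 37.5, 39.6 and 35.2 TPM in STBD1 WT and at 53.3, 40.9 and 47.3 TPM in STBD1 W203C. No STBD1 WT library reached a plvx neo library. The log2 fold change was −0.19 ± 0.06 (edgeR quasi-likelihood adjusted p = 0.0321), and neither DESeq2 nor 3 of the 6 fits without 1 library made the call.

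SNHG1 (ENSG00000255717, chromosome 11, 62851978 to 62855953, minus strand), whose span holds 8 box C/D snoRNAs, was at 315, 316 and 319 TPM in plvx neo, at 276, 278 and 299 TPM in STBD1 WT and at 308, 299.8 and 308 TPM in STBD1 W203C. Every STBD1 WT library lay below every plvx neo library. The log2 fold change was −0.14 ± 0.04 (edgeR quasi-likelihood adjusted p = 0.0140). The call was lost without plvx neo replicate 1 and without STBD1 WT replicate 1 (edgeR quasi-likelihood adjusted p = 0.0823 and 0.0888). No annotated gene other than snoRNAs overlaps its exons.

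SNHG6 (ENSG00000245910, chromosome 8, minus strand) was at 650.1, 690.4 and 671 TPM in plvx neo, at 593, 672 and 615 TPM in STBD1 WT and at 612, 615 and 741 TPM in STBD1 W203C. On the TPM scale STBD1 WT and plvx neo overlapped. On the CPM scale, which takes no account of transcript length, they did not, and the log2 fold change was −0.13 ± 0.04 (edgeR quasi-likelihood adjusted p = 0.0179). The call was not made by limma on log2(TPM + 1) values, nor in edgeR without STBD1 WT replicate 3 (quasi-likelihood adjusted p = 0.0979) or with the effective length offset (0.330). With a GC and length offset the estimate was −0.02 (edgeR quasi-likelihood adjusted p = 0.753).

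SNHG8 (ENSG00000269893, chromosome 4, 118278703 to 118285316, plus strand), host of SNORA24, was at 210.2, 242 and 228 TPM in plvx neo, at 249.7, 257 and 236 TPM in STBD1 WT and at 251, 224 and 254 TPM in STBD1 W203C. It was higher in STBD1 WT by 0.18 ± 0.06 (log2 fold change; edgeR quasi-likelihood adjusted p = 0.0354). On the CPM scale the groups did not overlap, while on the TPM scale they did. With 1 library left out, 5 of 6 fits no longer made the call. PRSS12, which overlaps the GENCODE exon of SNHG8 on the opposite strand, stood at 0.17 ± 0.07 in the same comparison (edgeR quasi-likelihood adjusted p = 0.0563). That exon spans 6614 bases, beside a mean RSEM length of 439 bases for SNHG8. The overlap may therefore be absent from the models used for counting, which was not tested. In STBD1 W203C against STBD1 WT, PRSS12 was lower, by −0.39 ± 0.08 (adjusted p = 0.000716 by the same test), where SNHG8 stood at −0.05 ± 0.06.

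**Figure D2:**
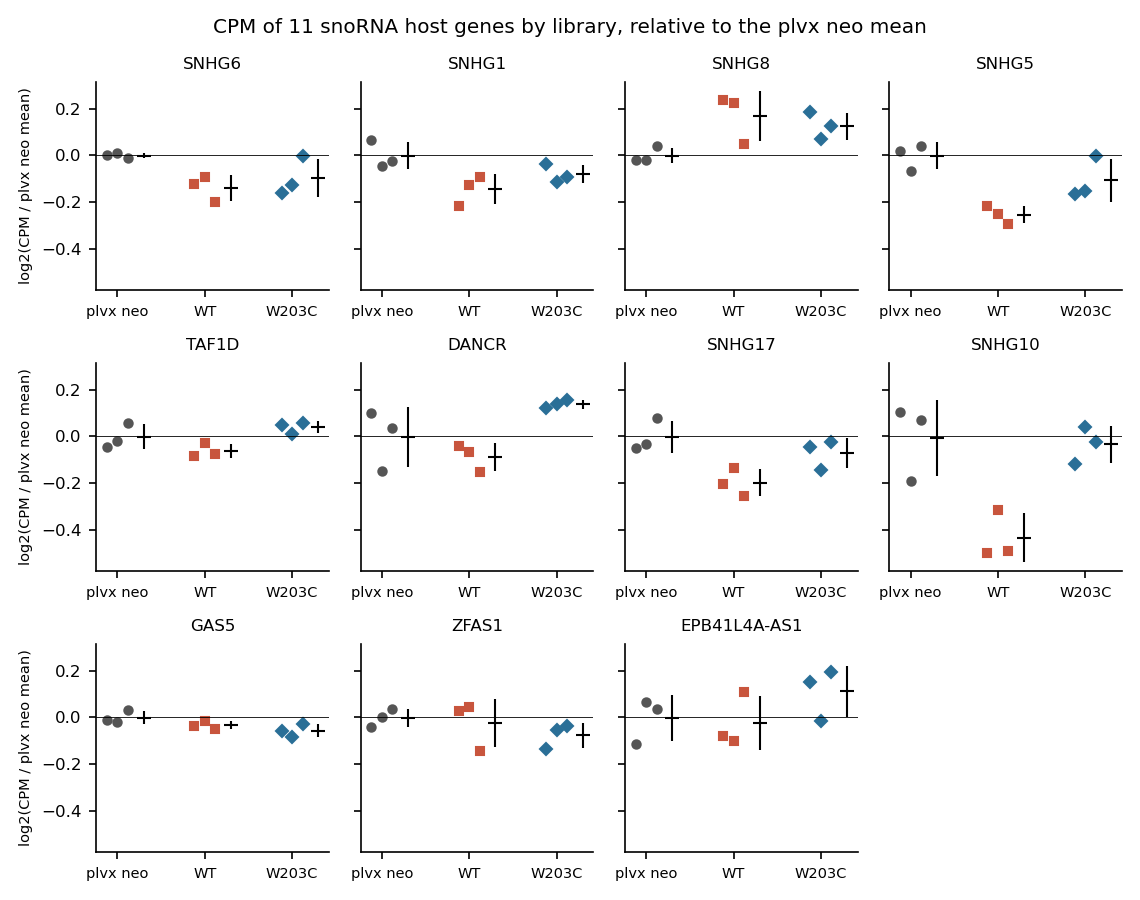
log2 ratio of the CPM of each library to the plvx neo mean for the 8 members called changed in a comparison and for GAS5, ZFAS1 and EPB41L4A-AS1, with 1 point per library and the mean ± SD beside each group. SNHG10 and SNHG5 are lowest in the STBD1 WT libraries, DANCR is highest in the STBD1 W203C libraries, and GAS5 stays within 0.1 of the plvx neo mean in all libraries.

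Comparing STBD1 W203C and STBD1 WT asked what the mutation changed when either protein was re-expressed. Of the 28 members tested, 4 were higher in STBD1 W203C, SNHG10, DANCR, SNHG5 and TAF1D, and 0 were lower, by the edgeR quasi-likelihood test. That is 14.3% of the members, beside 27.9% of the 15052 genes tested, of which 14.5% were higher and 13.4% lower. Of the members lower in estimate, 0 reached an unadjusted p below 0.05 in edgeR and 0 were called by DESeq2, whereas limma on log2(TPM + 1) called 1, SNHG19. The median log2 fold change was 0.04 for the members and −0.01 for all genes, and without STBD1 W203C replicate 1 the members' median was −0.00339. The comparison shares its STBD1 WT libraries with the one before, so that SNHG10 and SNHG5, which were lowest in those libraries, had to come out in opposite directions.

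SNHG10 was higher in STBD1 W203C by 0.39 ± 0.11 (log2 fold change; edgeR quasi-likelihood adjusted p = 0.00982), and GLRX5 by 0.14 ± 0.04. SNHG5 was higher by 0.15 ± 0.05 (edgeR quasi-likelihood adjusted p = 0.0391), a call that was kept in only 3 of the 6 fits without 1 library and in 3 of the other 11 alternatives.

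DANCR (ENSG00000226950, chromosome 4, 52712325 to 52723623, plus strand), a noncoding RNA known for holding progenitor cells in an undifferentiated state and the host of SNORA26, was at 129, 113 and 131 TPM in plvx neo, at 128, 119 and 117 TPM in STBD1 WT and at 137, 137 and 143 TPM in STBD1 W203C. The STBD1 W203C libraries were the 3 highest of the 9. The log2 fold change against STBD1 WT was 0.22 ± 0.05 (edgeR quasi-likelihood adjusted p = 0.00113), and the call held in each of the 6 fits that left out 1 library. Against plvx neo the estimate for STBD1 W203C was 0.14 ± 0.06 (edgeR quasi-likelihood adjusted p = 0.164), and for STBD1 WT it was −0.08 ± 0.06 (adjusted p = 0.341 by the same test). ERVMER34-1, an endogenous retroviral envelope gene whose exons overlap DANCR on the opposite strand, was also higher in STBD1 W203C than in STBD1 WT, by 0.24 ± 0.08 (edgeR quasi-likelihood adjusted p = 0.0316), with 461 expected counts on average beside 1300.2 for DANCR.

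TAF1D (ENSG00000166012, chromosome 11, 93729948 to 93784391, minus strand) encodes a subunit of SL1, the selectivity factor of RNA polymerase I, and its span holds 8 snoRNAs. It was at 154, 156 and 171 TPM in plvx neo, at 145, 150.2 and 151 TPM in STBD1 WT and at 168, 164 and 167 TPM in STBD1 W203C. STBD1 W203C and STBD1 WT did not overlap, with plvx neo between and across them. The log2 fold change of STBD1 W203C against STBD1 WT was 0.10 ± 0.04 (edgeR quasi-likelihood adjusted p = 0.0425), and 5 of the 6 fits without 1 library did not make the call. MED17, a Mediator subunit gene that overlaps TAF1D on the opposite strand in GENCODE, was higher by 0.26 ± 0.05 (edgeR quasi-likelihood adjusted p = 0.000915). It had 1254 expected counts on average beside 3438 for TAF1D. MED17 begins at 93784227, whereas the RefSeq start of TAF1D lies at 93741495, so the overlap rests on the GENCODE start. Whether the models used for counting hold it was not tested.

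Between STBD1 W203C and plvx neo, which share the hairpin and differ in the mutant protein, the test called 0 members higher and 0 lower among 28 tested by edgeR, and DESeq2 and limma called 0 as well. Over all 15081 genes tested, 5.70% were called, 3.03% higher and 2.67% lower. At an unadjusted p below 0.05 in edgeR there were 3 members, DANCR and SNHG8 higher and SNHG6 lower. The median log2 fold change of the members was −0.04, beside −0.00 over all genes. The lowest estimate was that of SNHG25, at −0.39 ± 0.19 (edgeR quasi-likelihood adjusted p = 0.261), a short RNA with 44 to 83 expected counts per library. The highest was that of SNHG14, at 0.41 ± 0.49 (edgeR quasi-likelihood adjusted p = 0.723), with 1 to 11 expected counts per library.

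**Figure D3:**
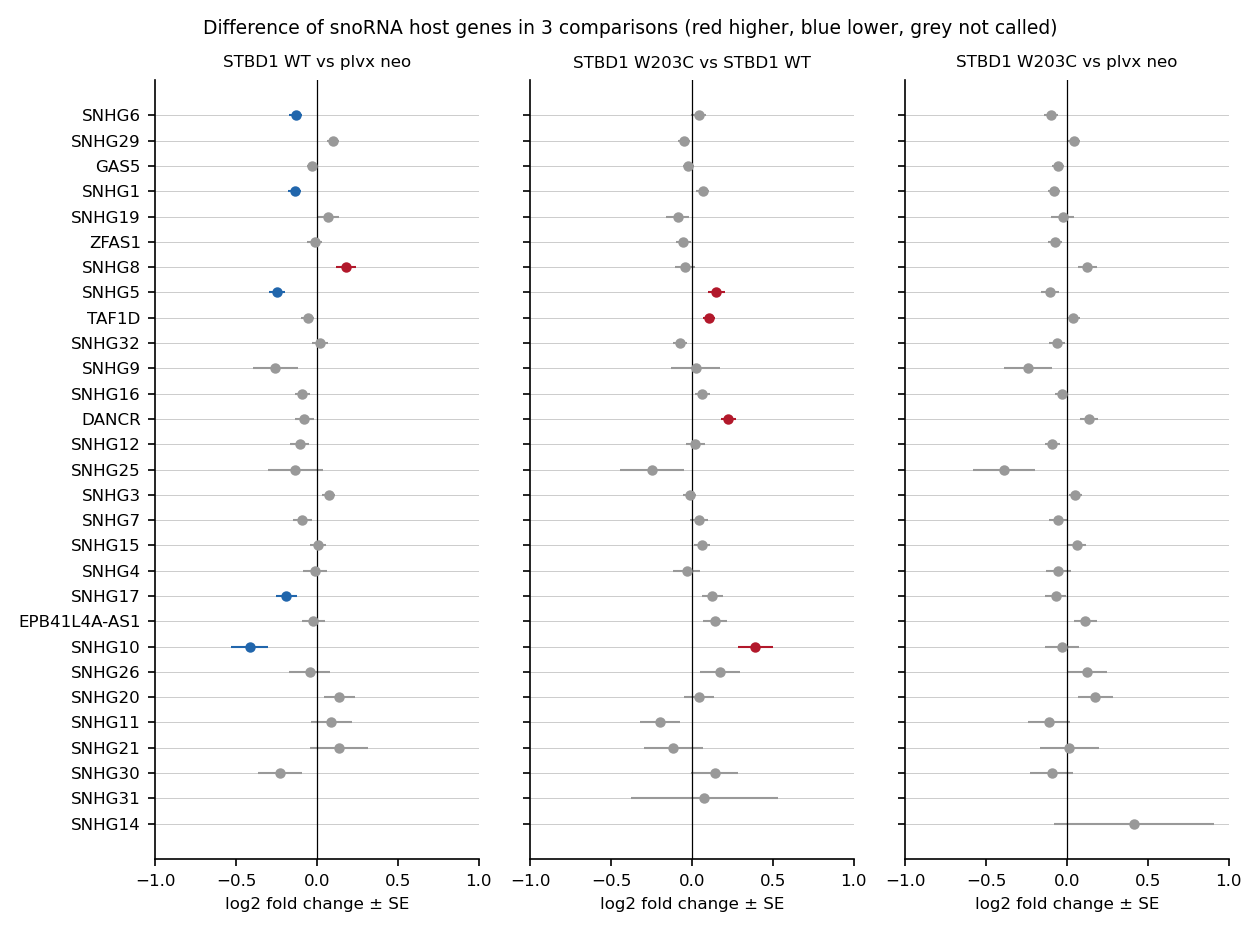
log2 fold change ± SE (edgeR quasi-likelihood fit) of each snoRNA host gene tested, in 3 panels for the 3 comparisons, with members ordered by level. Most members lie within 0.26 of 0 (1.2-fold), with 26 of 27, 27 of 28 and 26 of 28 in the panels from left to right, and the widest error bars belong to SNHG31 and SNHG14, which have few counts.

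GAS5 and ZFAS1, among the most studied hosts, differed little. GAS5 (ENSG00000234741, chromosome 1, 173858559 to 173868882, minus strand), a growth-arrest transcript that can bind the glucocorticoid receptor, was at 417, 437 and 439 TPM in plvx neo, at 425, 440.5 and 440.4 TPM in STBD1 WT and at 419.8, 422 and 444 TPM in STBD1 W203C. The groups overlapped on this scale, while on the CPM scale every STBD1 W203C library lay below every plvx neo library. Its log2 fold change was −0.03 ± 0.04 for STBD1 WT against plvx neo, −0.02 ± 0.04 for STBD1 W203C against STBD1 WT and −0.06 ± 0.04 for STBD1 W203C against plvx neo, with edgeR quasi-likelihood adjusted p values of 0.591, 0.692 and 0.430.

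ZFAS1 (ENSG00000177410, chromosome 20, 49278178 to 49299600, plus strand), host of the SNORD12 family, was at 269.7, 273 and 287 TPM in plvx neo, at 278, 277 and 245 TPM in STBD1 WT and at 264, 284 and 279.6 TPM in STBD1 W203C. STBD1 WT replicate 3 was the lowest of the 9, and the groups overlapped. Its log2 fold changes were −0.02 ± 0.05, −0.05 ± 0.05 and −0.08 ± 0.04 in the order of the comparisons above (edgeR quasi-likelihood adjusted p = 0.841, 0.431 and 0.349). ZNFX1, which shares the locus on the opposite strand, was higher in STBD1 WT than in plvx neo by 0.22 ± 0.05 (edgeR quasi-likelihood adjusted p = 0.00148).

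EPB41L4A-AS1 (ENSG00000224032, chromosome 5, 112160526 to 112164818, plus strand), antisense to EPB41L4A and host of SNORA13, was at 38.0, 31.5 and 36.0 TPM in plvx neo, at 38.6, 36.8 and 34.6 TPM in STBD1 WT and at 43.5, 30.1 and 33.7 TPM in STBD1 W203C. On this scale STBD1 W203C held both the highest and the lowest of the 9 values. In CPM the lowest was plvx neo replicate 1 at 28.5, and STBD1 W203C ran from 30.6 to 35.3. Its log2 fold changes were −0.02 ± 0.07, 0.14 ± 0.07 and 0.11 ± 0.07 (edgeR quasi-likelihood adjusted p = 0.850, 0.163 and 0.413). The second of these turned to −0.05 with limma on log2(TPM + 1) and to −0.07 with the effective length offset.

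The remaining members were not called in any comparison by the main edgeR fit. SNHG29, the second most abundant, came closest, with 0.10 ± 0.04 for STBD1 WT against plvx neo (edgeR quasi-likelihood adjusted p = 0.0627). Outside the members described so far, the estimates for STBD1 WT against plvx neo ran from −0.26 ± 0.14 for SNHG9 and −0.23 ± 0.14 for SNHG30 to 0.14 ± 0.10 for SNHG20 and 0.14 ± 0.18 for SNHG21. SNHG3, SNHG4, SNHG7, SNHG11, SNHG12, SNHG15, SNHG16, SNHG19, SNHG26 and SNHG32 lay between these values. Of these, SNHG19 was called higher in STBD1 WT than in plvx neo by limma on log2(TPM + 1) and on log2(TPM + 0.1). In CPM its groups overlapped, at 25.1 to 27.2 in plvx neo and 26.0 to 28.1 in STBD1 WT. The main estimate was 0.07 ± 0.07 (edgeR quasi-likelihood adjusted p = 0.503). Its effective length, by which TPM is scaled, was 96.6 to 103.7 bases in plvx neo and 81.8 to 93.7 in STBD1 WT. An estimate that misses the threshold does not show equal levels: the median SE of the members was 0.06 on the log2 scale in each comparison.

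The pyrimidine start did not separate the members that were called from the rest. Among the 7 tested members with it, 1 was lower and 0 higher in STBD1 WT than in plvx neo (median log2 fold change −0.02), and among the 16 with another start 3 were lower and 1 higher (median −0.04). For STBD1 W203C against STBD1 WT, 2 of 7 and 2 of 17 were higher, with medians of −0.03 and 0.06. These splits were made after the values were known and were not tested.

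Many members share their locus with another gene by the GENCODE annotation, which may differ from the models used for counting. Exons of 22 members overlap exons of another gene in the tables that is not a snoRNA, 10 on the same strand and 19 on the opposite strand, and 11 members have no such overlap. Among the 8 tested members without overlap 2 were called lower in STBD1 WT than in plvx neo, SNHG1 and SNHG17, and among the 19 with overlap 3 were lower and 1 higher. For STBD1 W203C against STBD1 WT, all 4 members called higher were among the 19 with overlap, and 0 of the 9 without overlap were called.

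SNHG3 (ENSG00000242125, chromosome 1, 28505980 to 28510892, plus strand) shares exons with RCC1, the nucleotide exchange factor of the Ran GTPase, on the same strand. SNHG3 was at 67.6, 69.0 and 68.2 TPM in plvx neo, at 116, 72.8 and 69.3 TPM in STBD1 WT and at 71.6, 70.4 and 75.0 TPM in STBD1 W203C. The high TPM of STBD1 WT replicate 1 has no counterpart in the counts, where the library stood at 144 CPM beside 136 to 150 CPM in the others. The transcript length that RSEM assigned to SNHG3 was 1520 bases in that library and 2363 to 2395 bases in the other 8. In counts, SNHG3 changed by 0.07 ± 0.04, −0.02 ± 0.04 and 0.05 ± 0.04 on the log2 scale in the 3 comparisons, none of them called, whereas RCC1 was lower in STBD1 WT than in plvx neo by −0.32 ± 0.04 and higher in STBD1 W203C than in STBD1 WT by 0.33 ± 0.04 (edgeR quasi-likelihood adjusted p = 2.48e-06 and 8.24e-06).

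**Figure D4:**
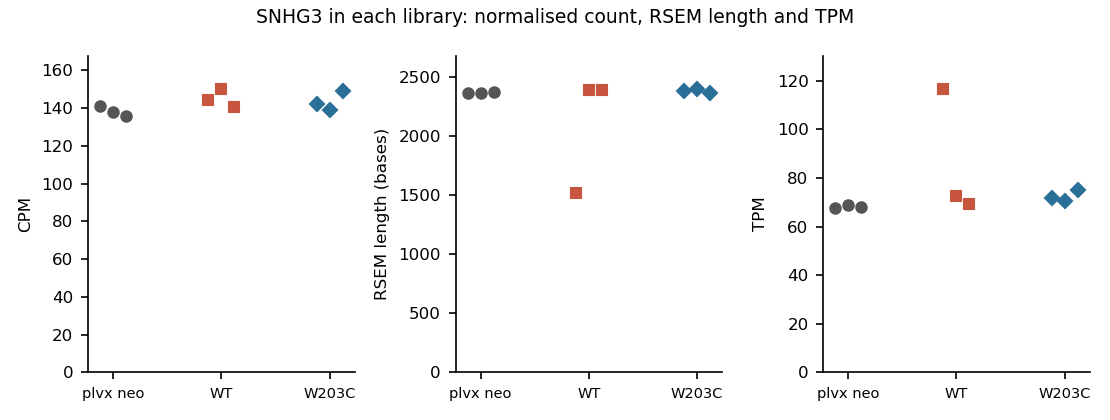
SNHG3 in each library as CPM (left), as the transcript length assigned by RSEM in bases (middle) and as TPM (right), with all axes starting at 0. STBD1 WT replicate 1 stands apart in length (1520 bases) and in TPM (116), and not in CPM (144).

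SNHG21, host of SCARNA15, was not called in any comparison, while an overlapping transcript was. ENSG00000252690 (chromosome 15, 82752884 to 82757208, plus strand), annotated as a noncoding RNA with a retained intron over the 3′ part of SNHG21, had 138, 165 and 118 expected counts in plvx neo. STBD1 WT had 239.6, 379 and 271, and STBD1 W203C had 74.9, 106 and 102. The 3 groups did not overlap. Its log2 fold change was 1.11 ± 0.11 for STBD1 WT against plvx neo and −1.55 ± 0.13 for STBD1 W203C against STBD1 WT (edgeR quasi-likelihood adjusted p = 2.62e-07 and 2.38e-08), and −0.44 ± 0.16 for STBD1 W203C against plvx neo (adjusted p = 0.109 by the same test). SNHG21, with 57.2 to 113 expected counts per library, stood at 0.14 ± 0.18, −0.11 ± 0.18 and 0.02 ± 0.18 in the same order, none of them called. The division of pairs between these transcripts was estimated by RSEM and was not tested.

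The other genes that overlap a member and passed the filter included TRNAU1AP beside SNHG12, higher in STBD1 WT than in plvx neo by 0.24 ± 0.08 (edgeR quasi-likelihood adjusted p = 0.0325), where SNHG12 stood at −0.11 ± 0.06. UBE3A beside SNHG14, MYO5B beside SNHG22 and ENSG00000272668 beside SNHG28 were called in the same comparison, while their hosts had too few counts to be tested. SIL1 beside SNHG4, DIPK1B beside SNHG7 and ST6GALNAC2 beside SNHG16 were lower in STBD1 W203C than in STBD1 WT, by −0.19, −0.26 and −0.47 on the log2 scale, where SNHG4 stood at −0.03, SNHG7 at 0.04 and SNHG16 at 0.06, none of the 3 called. SEC14L1, MATR3, LRRC75A, ABCA12, EPB41L4A, GAS5-AS1, ZBTB37, MCMDC2, CEP295, C11orf54, ENSG00000248375, ENSG00000267078 and ENSG00000284526 were not called in any comparison.

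The tables cannot show the snoRNAs that these hosts carry. By GENCODE 44, 153 snoRNA and scaRNA genes inside members on the same strand were listed in the tables. GENCODE placed 0 in GAS5, where RefSeq placed 11, so the snoRNAs of GAS5 are not among the 153. Of the 153, 148 had no count in any of the 9 libraries. For 147 the effective length in RSEM was 0, since they are shorter than the sequenced fragments. SCARNA13 alone passed the filter, and the highest count of any of the others was 5.66. The host values therefore speak of the spliced or unspliced host RNA only.

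Other genes of the same pathway were taken from 7 fixed lists with 141 symbols, of which 140 matched the tables and 7 stood in more than 1 list. In STBD1 WT against plvx neo, 6 of 8 core proteins of the snoRNP (the particle of a snoRNA and its proteins) were lower and 0 higher, with a median log2 fold change of −0.19, beside 0.01 over all genes tested, of which 13.9% were lower and 13.9% higher. The largest falls were those of GAR1, an H/ACA core protein, at −0.23 ± 0.05, and FBL, the methyltransferase fibrillarin of box C/D particles, at −0.21 ± 0.04. Of 13 snoRNP assembly factors, 9 were lower and 1 higher (median −0.24), among them TGS1, the cap hypermethylase, at −0.33 ± 0.06, and SHQ1, an assembly chaperone of dyskerin, at −0.29 ± 0.07, with PIH1D1 the 1 that rose, at 0.16 ± 0.05. Of 9 tested genes of the list for initiation by RNA polymerase I, 6 were lower and 0 higher (median −0.26), led by TAF1A, a partner of TAF1D in SL1, at −0.57 ± 0.12, and POLR1B, at −0.35 ± 0.05.

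Between STBD1 W203C and STBD1 WT, 7 of the 8 core proteins were higher and 0 lower (median 0.16), led by NOP56 at 0.25 ± 0.04 and the pseudouridine synthase DKC1 at 0.23 ± 0.05, beside 14.5% of all genes tested higher and 13.4% lower. The same STBD1 WT libraries enter the first comparison, so these counts, and those of the lists below, are not independent of it. With upper quartile factors 4 core proteins were higher, and 6 assembly factors. Of the 13 assembly factors, 8 were higher and 1 lower (median 0.20), led by RPAP3 at 0.32 ± 0.06 and TGS1 at 0.31 ± 0.06, with PIH1D1 at −0.18 ± 0.05. Of the 9 genes of the RNA polymerase I list, 5 were higher and 0 lower (median 0.19), led by TAF1A at 0.50 ± 0.11 and UBTF at 0.34 ± 0.04. Against plvx neo, 0 genes of these 3 lists were called in STBD1 W203C by edgeR, with medians between −0.03 and −0.02. A GC and length offset called 1 core protein higher and 1 lower, and 1 gene of the RNA polymerase I list higher.

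Nonsense-mediated decay, which degrades several of the host transcripts, was followed by its factors and by its known mRNA targets. Of 24 factors, 13 were lower and 0 higher in STBD1 WT than in plvx neo (median −0.14), with MAGOHB at −0.39 ± 0.07 and MAGOH, the exon junction protein that it resembles, at −0.38 ± 0.05. With STBD1 WT as the reference, 12 were higher in STBD1 W203C and 0 lower (median 0.14), led by MAGOHB at 0.44 ± 0.07 and UPF3B at 0.35 ± 0.08. Against plvx neo, DHX34 was higher in STBD1 W203C, at 0.23 ± 0.05, and DCP2 lower, at −0.22 ± 0.07. With a GC and length offset the first split became 2 higher and 14 lower. Of all genes tested, 13.9% were lower and 13.9% higher in STBD1 WT than in plvx neo. For STBD1 W203C the shares were 14.5% higher and 13.4% lower against STBD1 WT, and 3.03% higher and 2.67% lower against plvx neo. MAGOH and MAGOHB are close paralogs, so the division of reads between them is uncertain.

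The 12 mRNA targets did not move in 1 direction. In STBD1 WT against plvx neo 2 were higher, GADD45A at 0.63 ± 0.05 and ATF3 at 0.53 ± 0.05, and 5 were lower, with CARS1 at −0.62 ± 0.04 and UPP1 at −0.44 ± 0.07. Against STBD1 WT, 2 were higher in STBD1 W203C, UPF3B at 0.35 ± 0.08 and CARS1 at 0.21 ± 0.05, and 3 lower, with ATF3 at −0.25 ± 0.04 and GADD45A at −0.21 ± 0.04. Against plvx neo, 2 were higher in STBD1 W203C, GADD45A at 0.41 ± 0.05 and ATF3 at 0.28 ± 0.05, and 3 were lower, with CARS1 at −0.41 ± 0.04 and UPP1 at −0.28 ± 0.08. With a GC and length offset the split against STBD1 WT turned to 4 higher and 2 lower. Beside these counts, 13.9% of all genes tested were lower and 13.9% higher in STBD1 WT than in plvx neo. In STBD1 W203C 14.5% were higher and 13.4% lower against STBD1 WT, and 3.03% and 2.67% against plvx neo. GADD45A, ATF3 and CARS1 are also stress response genes.

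A list of host genes that encode proteins was set beside the members. Of 56 tested, 17 were lower and 2 higher in STBD1 WT than in plvx neo (median −0.05), led by the chaperone HSPA8 at −0.54 ± 0.04 and CWF19L1 at −0.41 ± 0.05, with EEF2 at 0.21 ± 0.04 and SLC25A3 at 0.11 ± 0.04 on the other side. Relative to STBD1 WT, 20 were higher and 5 lower in STBD1 W203C (median 0.00), led by HSPA8 at 0.53 ± 0.05 and TCP1 at 0.34 ± 0.04, with RPL13A and EEF2 each at −0.13 ± 0.04. In STBD1 W203C against plvx neo 3 were higher and 4 lower (median −0.01), with CCAR1 at 0.20 ± 0.04, PPAN at 0.17 ± 0.04, CWF19L1 at −0.19 ± 0.05 and RPL37 at −0.18 ± 0.03. With a GC and length offset the splits were 6 higher and 20 lower, 22 and 8, and 5 and 2 in the order of the comparisons, and upper quartile factors gave 18 higher and 10 lower for STBD1 W203C against STBD1 WT. The shares over all genes tested were 13.9% higher and 13.9% lower in the first comparison and 14.5% higher and 13.4% lower in the second. In the third they were 3.03% higher and 2.67% lower. Ribosomal protein genes have many processed pseudogenes, so their counts are uncertain.

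Of 18 mRNAs with a TOP start that do not encode ribosomal proteins, 4 were higher and 5 lower in STBD1 WT than in plvx neo (median −0.04), with EEF2 at 0.21 ± 0.04, the elongation factor EEF1A1 at 0.19 ± 0.04, NPM1 at −0.19 ± 0.04 and EIF3H at −0.16 ± 0.04. Relative to STBD1 WT, 1 was higher in STBD1 W203C, NPM1 at 0.15 ± 0.04, and 3 were lower, with TPT1 at −0.16 ± 0.04 and EEF1A1 at −0.15 ± 0.04. In STBD1 W203C against plvx neo 0 were called. A GC and length offset turned both splits, to 5 higher and 4 lower in the first comparison and 4 higher and 2 lower in the second, so no direction holds for this list. Among all genes tested in the main fit, 13.9% were higher and 13.9% lower in the first comparison. The second had 14.5% higher and 13.4% lower, and the third 3.03% and 2.67%. The members chosen by symbol, TAF1D included, thus had smaller shares of called genes than the 3 lists of snoRNP and polymerase I genes in the first and second comparisons, a difference that was not tested.

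**Figure D5:**
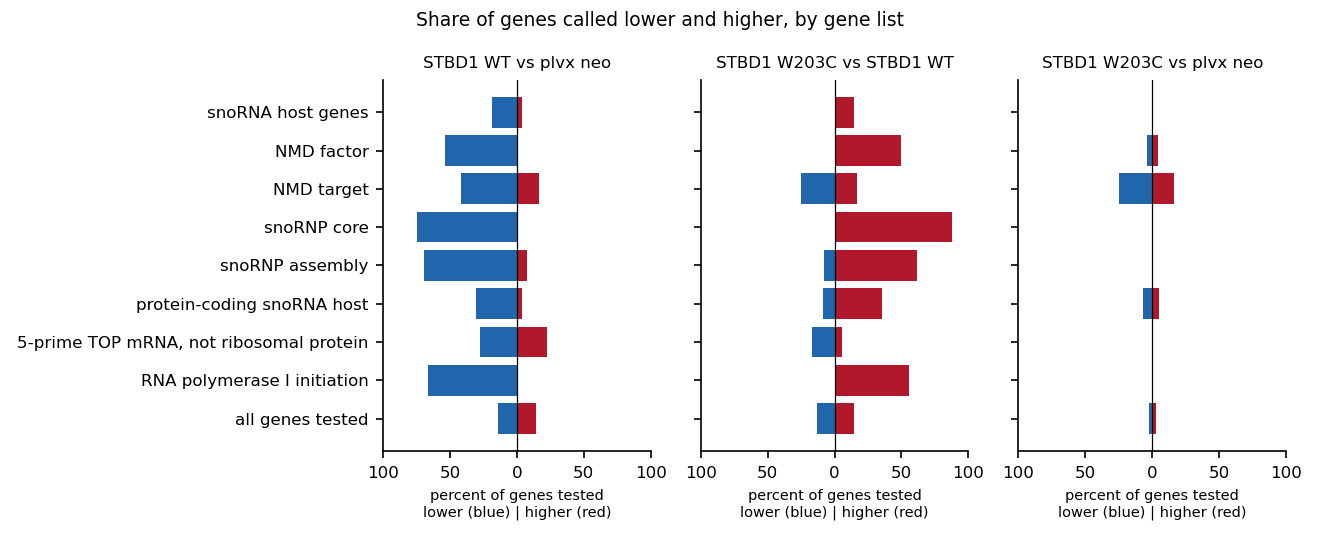
Percent of tested genes called lower (blue, to the left) and higher (red, to the right) by the edgeR quasi-likelihood test for the snoRNA host genes, the 7 gene lists and all genes tested, in 3 panels for the 3 comparisons. The core and assembly lists of the snoRNP and the polymerase I list reach furthest left for STBD1 WT against plvx neo and furthest right for STBD1 W203C against STBD1 WT, and the bars of the host genes (22.2%, 14.3% and 0% called in all) stay shorter than theirs in these panels. Both of these comparisons use the same STBD1 WT libraries and are not independent.

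One measure of the libraries moved with the groups and touches short transcripts. The median difference between the length and the effective length of a gene, which follows the length of the sequenced fragments, was 239.5 to 247 bases in plvx neo, 250.1 to 263 in STBD1 WT and 245 to 257 in STBD1 W203C. With RSEM's effective lengths as an offset in the count model, 2 members were lower in STBD1 WT than in plvx neo, SNHG1 and SNHG17, and 0 higher, and 0 were called in STBD1 W203C against STBD1 WT, while the share called among all genes dropped to 12.5% and 10.5%. SNHG10 was then at the edge, with an adjusted p of 0.0510 by the edgeR quasi-likelihood test for STBD1 WT against plvx neo. Its estimate was larger, −0.66 ± 0.19 beside −0.42 ± 0.11 in the main fit, with a wider SE. The effective length of SNHG10 was 573 bases in plvx neo replicate 1 and 752 to 845 bases in the other libraries.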

How the data were processed

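Total RNA of the 9 samples was sequenced as read pairs after TRIzol extraction and NEBNext Ultra library preparation. The authors aligned reads to hg38 with STAR 2.7.1a and Ensembl release 93 gene models and quantified them with RSEM 1.3.1. The deposited tables give expected counts per gene, unscaled, and TPM, scaled by the authors with RSEM for effective length and total. Strand use in counting is not given in the sources used here. FPKM was not used.

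Members and gene lists were chosen with earlier results of these data known. Expected counts were rounded, filtered with filterByExpr, TMM-normalised and tested per comparison on its 6 libraries over all genes with edgeR 4.0.16 (glmQLFit, glmQLFTest, R 4.3.3), two-sided, Benjamini-Hochberg adjusted p below 0.05. SE was the log2 fold change divided by the square root of F. CPM used TMM factors over all 9 libraries. Alternatives were other size factors, no filter, DESeq2 1.42.0, limma 3.58.1 on log2(TPM + 1) and log2(TPM + 0.1), all 9 libraries, effective length and GC with length offsets, a replicate block and each library left out. Scripts were tested on simulated data. Positions and overlaps came from GENCODE 44 (GRCh38) and not from the gene models used for counting. An overlap given here may be absent from those models, which was not tested. Symbols matched 57754 of 58395 genes.

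Named in full were all members called in a comparison and GAS5, ZFAS1, EPB41L4A-AS1, DANCR and TAF1D, of each list the 2 largest rises and falls among called genes, and overlapping genes that passed the filter. SNHG3, SNHG21, SNHG25 and SNHG29 were singled out after their values were seen. A few markers and overlapping genes are not reported here.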

Additional observations from a re-analysis of the deposited data

How the results depend on the processing

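For STBD1 WT against plvx neo, 1 member was higher and 5 lower. The count of higher members was 2 with upper quartile factors, 0 with DESeq2, 0 with the effective length offset and 3 with the GC and length offset, with or without the replicate block, and it ranged from 0 to 2 with 1 library left out. With limma at either pseudocount it was 1, and the member called was SNHG19 in place of SNHG8. The count of lower members was 2 with the effective length offset and ranged from 3 to 6 with 1 library left out. Without STBD1 WT replicate 1, or without STBD1 WT replicate 3, it was 3. The median log2 fold change ranged from −0.0756 to −0.0311 with 1 library left out, and was −0.0107 with the GC and length offset. Over all genes the share called moved too, from 27.8% in the main fit to 12.5% with the effective length offset. It was 31% with the GC and length offset and 21.3% to 24.3% with 1 library left out. For STBD1 W203C against STBD1 WT, 4 members were higher. The count was 2 with upper quartile factors, 0 with the effective length offset, 2 with the GC and length offset, 2 with the replicate block, with or without that offset, and 2 to 4 with 1 library left out (2 without STBD1 WT replicate 2, without STBD1 WT replicate 3 or without STBD1 W203C replicate 3). The count of lower members was 0, and 1 with limma on log2(TPM + 1). The median ranged from −0.00339 (without STBD1 W203C replicate 1) to 0.0663. The share called over all genes was 27.9% in the main fit, 26.7% with upper quartile factors and 10.5% with the effective length offset. It was 29.9% with the GC and length offset, 24.3% with the replicate block and 21.5% to 23.4% with 1 library left out. For STBD1 W203C against plvx neo, where 0 were called, 2 were higher with the GC and length offset, with or without the replicate block (DANCR and SNHG8), and 0 to 1 lower with 1 library left out (SNHG6, without STBD1 W203C replicate 3). The median, −0.0427, was 0.00126 with limma at either pseudocount. Among all genes 5.7% were called in the main fit, 7.88% with the GC and length offset and 5.3% without STBD1 W203C replicate 3. The cause of these shifts was not tested.

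The replicate numbers did not pair the samples: deviations of same-numbered libraries correlated between −0.0203 and 0.0603, and no sentence of the report rests on the block. Over the 10 calls of members, 123 of 170 repeats kept the call and 47 lost it, and 0 turned their direction. Both SNHG10 calls, DANCR and SNHG5 against plvx neo were lost under the effective length offset alone. The members below 20 counts per library, SNHG14, SNHG22, SNHG28 and SNHG31, had too few counts to show a difference at this depth.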
